A study of Mus musculus with 12 samples.

Results

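The genes followed here across all 12 islet libraries are 10 members of the insulin-like growth factor (IGF) system, Igf1, Igf1r, Igf2r, Igfbp2, Igfbp3, Igfbp5, Igfbp7, Igf2bp1, Igf2bp2 and Igf2bp3, out of 37991 genes in the count table. They were chosen by symbol, with earlier results of these data known. Each symbol matched 1 Ensembl row, and all 10 had enough reads to be tested. Together they hold a ligand, its receptor, the IGF2 scavenger receptor, 4 secreted binding proteins and 3 mRNA-binding proteins. Bulk RNA-seq was run on islets of male C57BL/6 mice at 2w and 12w of age. Tg7 mice carry a transgene that overexpresses miR-7a2 in β-cells, and Wt mice were their littermates without it. Blood glucose of Tg7 mice is known to be normal at the younger age and raised at the older. The promoter that drives the transgene is not stated in the sources used here. Each of the 4 groups had 3 libraries, each from a pool of at least 3 animals, so the p values measure the spread between pools and not between single mice.

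IGF1 and IGF2 are small secreted proteins related to insulin. Both act through the tyrosine kinase IGF1R, which is closely related to the insulin receptor and supports growth and survival of β-cells, whereas IGF2R carries no kinase and takes IGF2 to lysosomes together with mannose 6-phosphate tagged enzymes. The IGFBP proteins hold IGFs outside the cell and either block or prolong their action, and IGFBP7 is a weak IGF binder deposited around vessels. The IGF2BP proteins are unrelated to the IGFBPs: they bind mRNAs in the cytoplasm, among them that of Igf2, and are best known from foetal tissue.

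Since the transgene encodes miR-7, its mature sequence and the matches to its seed in the 10 genes are shown first. The capitals mark the seed, bases 2 to 8 of the mature miRNA (RefSeq, GRCm38.p6).

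mmu-miR-7a-5p: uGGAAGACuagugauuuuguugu

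Matches were searched on the transcript strand of 1 annotated 3′ UTR per gene in NCBIM37 (mm9), the build of the files, as GTCTTCCA (8mer), GTCTTCC without the closing A (7mer-m8) or TCTTCCA without the first G (7mer-A1), each UTR position counted once. In 3 of the 10 genes a match was found. The capitals mark the matched bases in the 29 bases around each.

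Igf1, 7mer-A1, chr10:87397712-87397740, plus strand: gtagaggttgcTCTTCCAtcagtgacctg

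Igf2bp2, 7mer-m8, chr16:22059364-22059392, minus strand: gcagctcttctGTCTTCCgctagccaaga

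Igf2bp3, 8mer, chr6:49036038-49036066, minus strand: gtccaccaaaaGTCTTCCAtgaaatgtag

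Among 19984 annotated 3′ UTRs, 21.5% held at least 1 of these matches and 3.32% held the 8mer. The share rose with length, to 47.5% of UTRs of at least 2000 bases and 65.2% of those of at least 4000 bases. The UTR searched was 6347 bases long in Igf1, 1784 in Igf2bp2 and 2121 in Igf2bp3. In Igf1r only 197 bases are annotated as 3′ UTR in this build, so that little of it was searched. A match is a description of the letters and not a measured binding site, and mature miR-7 was not measured by these libraries.

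Total counts per library ranged from 11610697 to 17515758. Counts were scaled to CPM, that is counts relative to the library total, with TMM factors that correct for the share of reads taken by a few very abundant transcripts. Ins1 and Ins2 together took 10.1 to 15.4% of the reads in 2w Wt, 1.84 to 4.09% in 2w Tg7, 14.8 to 30% in 12w Wt and 8.08 to 8.24% in 12w Tg7 libraries. The summed CPM of 10 β-cell markers was lower in Tg7 islets at both ages (111000 to 181000 in Wt and 27700 to 52700 in Tg7 at 2w), and 8 of the 10 passed the test as lower at each age. In bulk islets, fewer cells of a type and less RNA per cell cannot be told apart. The 12w Wt library numbered 4 stood apart from its group, with 14.8% insulin reads against 27 and 30% in the other two, and it held the highest Igf1r and Igf2r of all 12 libraries. Values of the 10 genes that this library moved by over 1.5 times, or whose call or sign it changed, are given with and without it.

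Per kilobase of exon (RPKM), Igfbp7 had the highest level of the 10 genes in every group, at 304 ± 14.6 (SD, n = 3) in 2w Wt islets, 460 ± 62.2 in 2w Tg7 islets, 152 ± 4.09 at 12w in Wt and 257 ± 11.6 at 12w in Tg7 islets. In 2w Wt islets Igf1r (21.1 ± 0.866 RPKM) came next, followed by Igf2r (17.9 ± 0.774) and Igfbp3 (13.5 ± 4.87), and the last 2 overlapped between libraries. In 12w Tg7 islets the order was Igfbp7, Igfbp3 (37 ± 5.21), Igf2r (11.9 ± 0.656), Igfbp5 (6.92 ± 0.724) and then Igf1r (4.6 ± 0.251), and no neighbours among these 5 overlapped. Igf1r thus stood at place 2 of 10 in 2w Wt and at place 5 in 12w Tg7 islets. Igf1 itself was near the bottom in every group, between 0.1 and 0.299 RPKM on average. At 12w Igf2bp1 and Igf2bp3 were the 2 lowest in both genotypes.

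**Figure D1:**
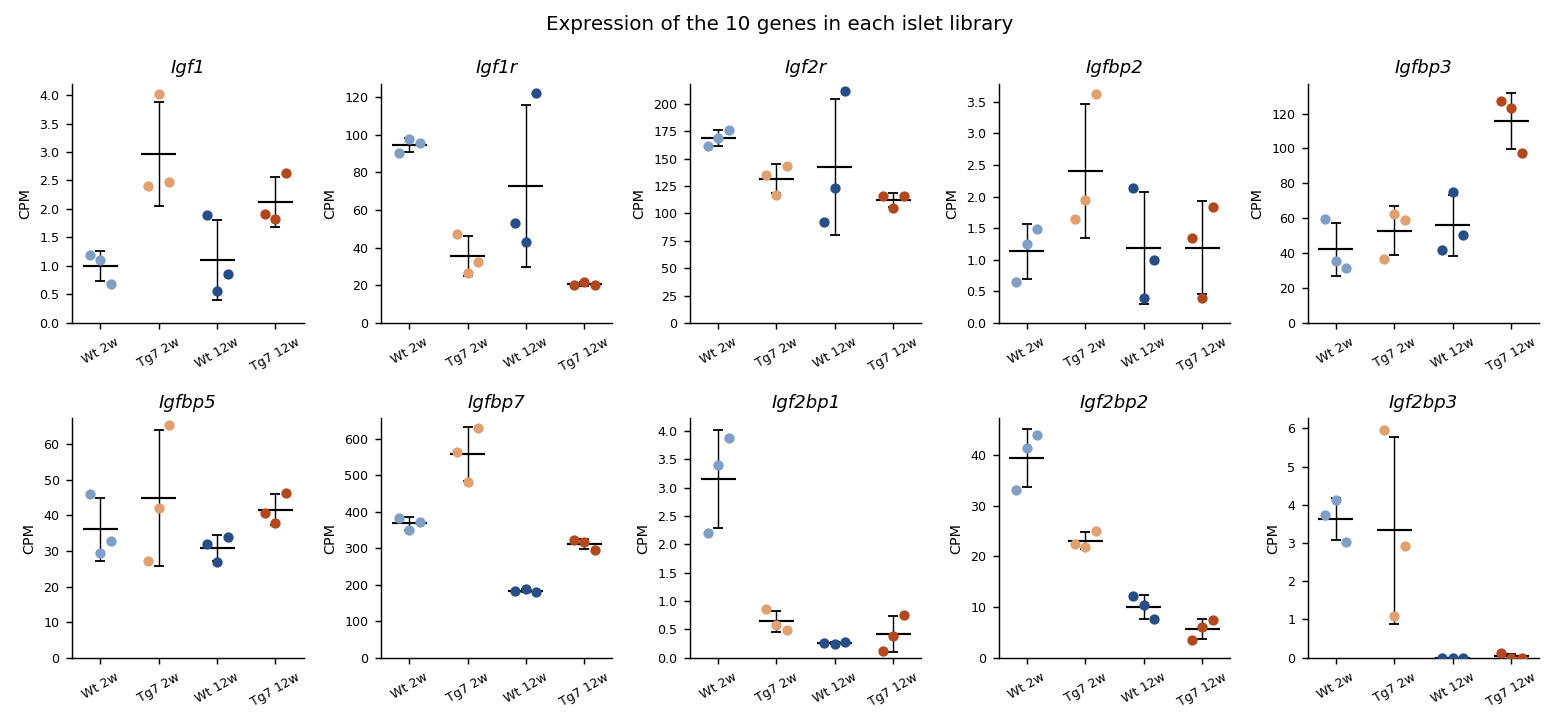
Expression of the 10 genes in CPM (y axis, from 0, with its own scale for each gene) in the 4 groups; each point is 1 library, the bar is the mean and the whiskers are the SD of 3 libraries. Igf1r lies lower and Igfbp7 higher in all Tg7 than in all Wt libraries of the same age, and Igf2bp3 falls to between 0 and 0.113 CPM at 12w.

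The first comparison asked which of the 10 genes differed in Tg7 islets before and after hyperglycaemia. At 2w, 5 of the 10 passed the test (2 higher, 3 lower), beside 10.6% of all 15961 genes tested (6.07% higher, 4.55% lower). At 12w, 4 passed (2 higher, 2 lower), beside 23.6% of all genes (12.5% higher and 11.2% lower). Because the 10 genes were chosen with earlier results of these data known, these counts are a description only. The median log2 difference of the 10 was 0.11 at 2w, against 0.03 over all genes. At 12w it was 0.43 over the 9 genes other than Igf2bp3, against −0.01 over all genes. Igf1r fell and Igfbp7 rose at both ages, with 2.67-fold and 3.55-fold lower Igf1r at 2w and 12w (log2 difference −1.83 at 12w, and −1.22 without Wt library 4).

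**Figure D2:**
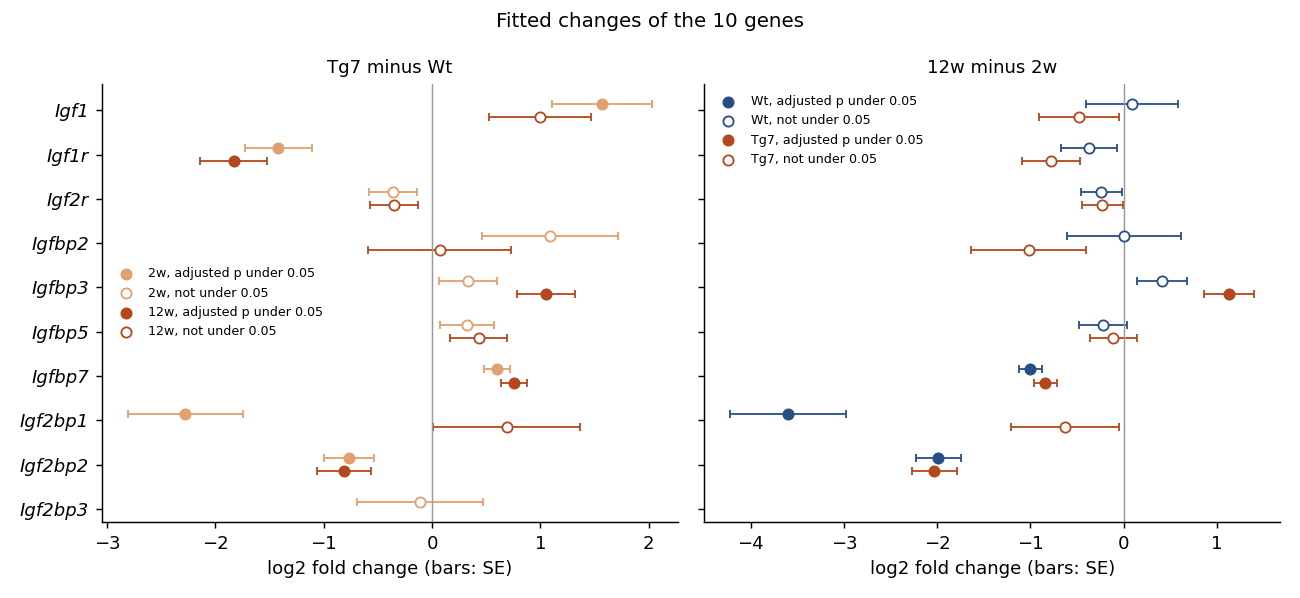
Fitted log2 fold changes (x axis, points) with their SE (whiskers) for Tg7 minus Wt at each age (left) and for 12w minus 2w in each genotype (right); filled points have an adjusted p under 0.05. Igf2bp3 is left out wherever a 12w group enters, because it had 0 to 2 counts per library there. On the right, Igf2bp1 had enough reads to be tested only through its 2w libraries, so the fill of its points there is a description only. Igf1r is the gene furthest below 0 on the left at 12w, at −1.83.

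Igf1r, the receptor kinase that transmits the signal of both IGFs, is encoded at chr7:75097713-75371484 on the plus strand. It measured 90.3, 97.9 and 95.5 CPM in 2w Wt libraries and 47.1, 26.4 and 32.5 CPM in 2w Tg7 libraries. At 12w it measured 53.3, 43.2 and 122 CPM in Wt libraries 1, 2 and 4 and 19.9, 21.9 and 19.9 CPM in Tg7 libraries. The groups did not overlap at either age, which held for 35.9% of all tested genes at 2w and 37.1% at 12w. The log2 difference was −1.42 (SE 0.31, adjusted p = 0.00959) at 2w and −1.83 (SE 0.31, adjusted p = 0.000922) at 12w. Without the 12w Wt library 4, in which Igf1r was highest, the 12w difference was −1.22 and still passed. The change of the Tg7 effect between the ages, −0.41 (SE 0.43, adjusted p = 0.733), did not pass, and its sign turned without that library (0.20). Igf1r was lower in Tg7 islets with every library left out in turn, at −1.68 to −1.25 at 2w and −2.1 to −1.22 at 12w.

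Igf2r, the lysosomal scavenger of IGF2, was less affected. It measured 162, 169 and 176 CPM in 2w Wt and 135, 117 and 143 CPM in 2w Tg7 libraries, so that the groups did not overlap, yet the log2 difference of −0.36 (SE 0.22, adjusted p = 0.315) did not pass. A fit on the 2w libraries alone gave the same −0.36 with an adjusted p of 0.0463. At 12w the Wt libraries spread from 92.5 to 212 CPM around the Tg7 values of 105 to 116 CPM, with a difference of −0.35 (adjusted p = 0.288). This value depended on single Wt libraries: it was −0.60 and passed (adjusted p = 0.032) without Wt library 1, and was 0.06 without library 4.

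Ratios within a library do not depend on the scaling between libraries. The insulin receptor gene Insr, whose product pairs with IGF1R in hybrid receptors, measured 57.9 to 65.9 CPM in 2w Wt and 67 to 78.6 CPM in 2w Tg7 libraries and did not pass at 2w (log2 difference 0.20, adjusted p = 0.37). At 12w it measured 54.1 to 78.5 CPM in Wt and 62.2 to 68 CPM in Tg7 libraries (−0.08, adjusted p = 0.73), a sign that turned to 0.36 when library size alone was used for scaling. Per kilobase, Igf1r stood at 3.25 ± 0.12 times Insr in 2w Wt islets and at 1.05 ± 0.254 times in 2w Tg7 islets. At 12w the ratio was 2.22 ± 0.987 in Wt and 0.688 ± 0.0102 in Tg7 islets, with Wt libraries between 1.59 and 3.36 and a Wt mean of 1.66 without library 4. All Tg7 libraries thus lay below all Wt libraries of their age, and at 12w Igf1r fell under Insr in every Tg7 library. Relative to Igf2r, Igf1r stood at 1.18 ± 0.04 in 2w Wt, 0.565 ± 0.15 in 2w Tg7, 1.06 ± 0.275 at 12w in Wt (0.98 without library 4) and 0.388 ± 0.0439 in 12w Tg7 islets. For this ratio the lowest 12w Wt library (0.739) was still above the highest 12w Tg7 library (0.439). No test was run on the ratios.

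**Figure D3:**
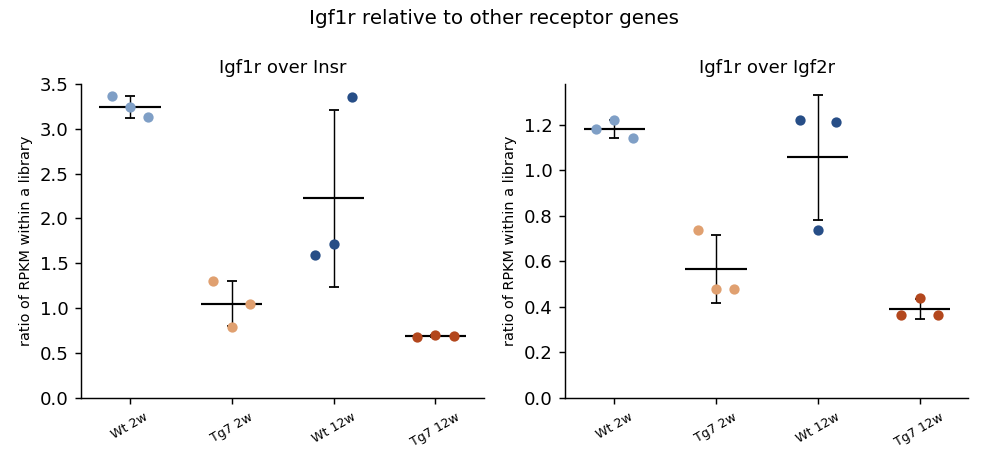
Igf1r divided by Insr (left) and by Igf2r (right), as ratios of RPKM within each library (y axes, from 0) in the 4 groups; points are libraries, bars means and whiskers SD (n = 3). The Tg7 libraries lie below the Wt libraries of the same age in both panels, and the 12w Wt ratios to Insr spread from 1.59 to 3.36.

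Igf1, encoded at chr10:87321010-87399792, was the only IGF ligand among the 10 genes and was scarce. Its 2w values were 1.19, 1.1 and 0.691 CPM in Wt and 2.4, 4.02 and 2.48 CPM in Tg7 libraries, from 48 and 157 reads in all. Igf1 was 2.98-fold higher in 2w Tg7 islets (log2 difference 1.57, SE 0.46, adjusted p = 0.0425). This call was lost when Wt library 1 (1.73), 2 (1.65) or 3 (1.36) or Tg7 library 2 (1.29) or 3 (1.68) was left out, and the gene was not tested under a minimum of 50 counts in 3 libraries. At 12w Igf1 measured 1.89, 0.555 and 0.866 CPM in Wt and 1.92, 1.82 and 2.63 CPM in Tg7 libraries, and its difference of 1.0 (SE 0.47) did not pass (adjusted p = 0.147). It passed at 12w with library size alone (1.47, adjusted p = 0.0194) or without Wt library 1 (1.53, adjusted p = 0.037). Macrophages and mesenchymal cells are known sources of Igf1: the summed CPM of 10 macrophage markers was 49.6 to 68.8 in Wt and 58.4 to 107 in Tg7 libraries at 2w, with 1 of the 10 called higher, and 96.7 to 110 and 86 to 90.3 at 12w, with 1 called lower. The summed CPM of 10 stellate cell and fibroblast markers was 328 to 476 in Wt and 517 to 684 in Tg7 libraries at 2w, with 6 of the 10 called higher, and 91.1 to 152 and 394 to 416 at 12w, with 9 called higher. None of these markers was at 0 in a group, and their part in the values of Igf1 was not tested.

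The 4 binding protein genes showed different patterns. Igfbp7 and Igfbp3 passed in at least 1 genotype comparison, and Igfbp2 and Igfbp5 in none. Igfbp7 made up most of the summed RPKM of these 4 genes. Its share was 93.9 ± 1.55% in 2w Wt, 94.7 ± 1.54% in 2w Tg7, 86.6 ± 1.96% at 12w in Wt and 85.2 ± 0.709% at 12w in Tg7 islets. Igfbp4, outside the set, does not enter this sum and averaged 22, 54.5, 31.1 and 31.1 RPKM in the same groups.

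Igfbp7, encoded at chr5:77778265-77837070 on the minus strand, measured 384, 349 and 373 CPM in 2w Wt and 563, 481 and 631 CPM in 2w Tg7 libraries. At 12w it measured 184, 189 and 179 CPM in Wt and 322, 318 and 296 CPM in Tg7 libraries. At both ages every Tg7 library was above every Wt library. Igfbp7 rose 1.52-fold at 2w (log2 difference 0.60, SE 0.12, adjusted p = 0.00588) and 1.70-fold at 12w (0.76, SE 0.12, adjusted p = 0.000472). Both calls held in all alternatives, with values of 0.49 to 0.69 and 0.74 to 0.80 when single libraries were left out. Of its exon bases, 85 (7.01%) overlap Polr2b on the opposite strand, and whether reads were counted by strand is unknown here, so that a share of them may belong to Polr2b.

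Igfbp3, encoded at chr11:7106089-7113926 on the minus strand and the main IGF carrier of serum, measured 59.5, 35.6 and 31.2 CPM in 2w Wt and 36.9, 62.7 and 58.9 CPM in 2w Tg7 libraries. These overlapped, and the difference of 0.33 did not pass (adjusted p = 0.471). At 12w the values were 41.8, 75.1 and 50.6 CPM in Wt and 127, 123 and 97.2 CPM in Tg7 libraries, without overlap. Igfbp3 rose 2.07-fold in 12w Tg7 islets (1.05, SE 0.27, adjusted p = 0.0119), in every alternative. That it passed at 12w and not at 2w does not show a different effect: the difference between the 2 effects was 0.72 (SE 0.38, adjusted p = 0.408).

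Igfbp5 and Igfbp2 are neighbours on chromosome 1, 5457 bases apart and on opposite strands. Igfbp5, a binding protein found in the matrix, measured 29.3 to 46 CPM in 2w Wt and 27.2 to 65.3 CPM in 2w Tg7 libraries (log2 difference 0.32, adjusted p = 0.456). At 12w it measured 31.9, 26.9 and 33.8 CPM in Wt and 40.6, 37.8 and 46.3 CPM in Tg7 libraries, which did not overlap, but the difference of 0.43 (SE 0.26) did not pass (adjusted p = 0.254). With library size alone it was 0.87 and passed (adjusted p = 0.0188). Igfbp2, a circulating carrier of IGFs, had 5 to 73 reads per library. Its 2w values of 0.652, 1.25 and 1.49 CPM in Wt and 1.65, 1.95 and 3.62 CPM in Tg7 libraries did not overlap, with a difference of 1.09 (SE 0.63, adjusted p = 0.288). At 12w its difference was 0.07 (SE 0.66, adjusted p = 0.954), and −0.01 without Wt library 4.

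Markers of other cell types were compared in the same groups as the binding protein genes. The summed CPM of 10 endothelial markers was 1130 to 1410 in 2w Wt and 1270 to 1370 in 2w Tg7 libraries, with 0 of 10 called by edgeR (1 by DESeq2 and 1 at an unadjusted p under 0.05), where Igfbp7 rose. At 12w it was 485 to 605 in Wt and 984 to 1030 in Tg7 libraries, with 9 of 10 called higher, where Igfbp7 and Igfbp3 rose. The sum of the stellate cell and fibroblast markers, given beside Igf1, was higher in every Tg7 library than in any Wt library of the same age. No marker of either list was at 0 in any group. The part of these cells in the values of Igfbp3, Igfbp5 and Igfbp7 was not tested.

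**Figure D4:**
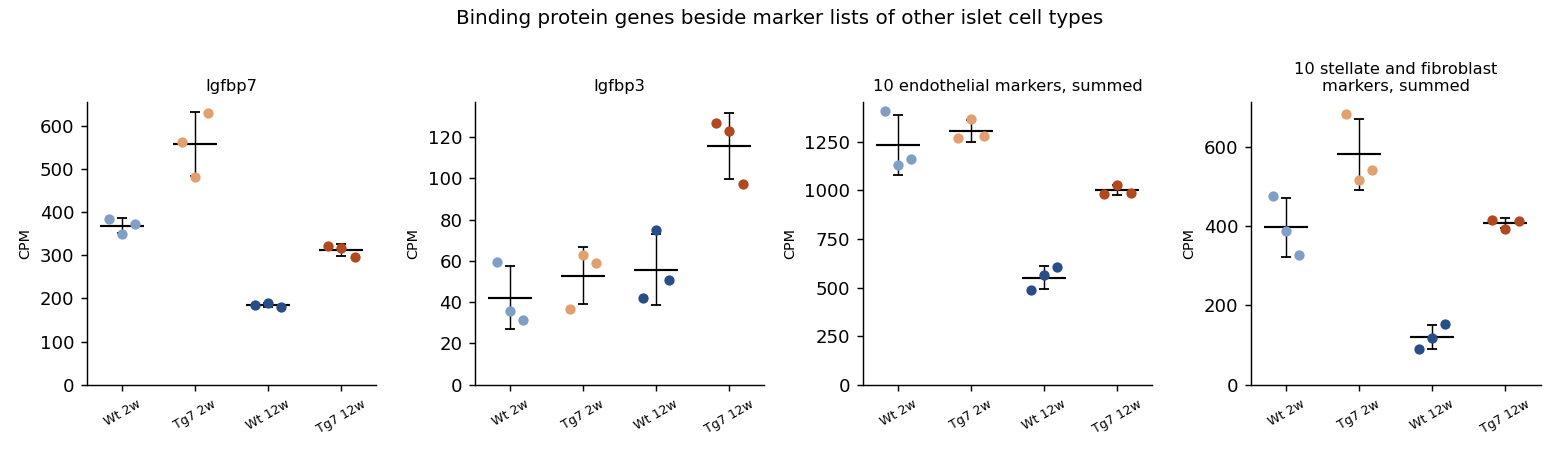
CPM of Igfbp7 and Igfbp3 and the summed CPM of 10 endothelial and of 10 stellate cell and fibroblast markers (y axes, from 0) in the 4 groups; points are libraries, bars means and whiskers SD (n = 3). The endothelial sum is 485 to 605 in 12w Wt and 984 to 1030 in 12w Tg7 libraries, and Igfbp7 and Igfbp3 are also higher in all 12w Tg7 libraries.

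Of the 3 Igf2bp genes, Igf2bp2 had the highest level in every group. Igf2bp2, the member that persists in adult tissue, carried 82.5 ± 2.08% of their summed RPKM in 2w Wt, 80.6 ± 11.4% in 2w Tg7, 98.1 ± 0.529% at 12w in Wt and 93.8 ± 1.45% at 12w in Tg7 islets. It is encoded at chr16:22059082-22163372 and is 1 of the genes with a 7mer match printed at the start. Igf2bp2 measured 33, 41.4 and 43.9 CPM in 2w Wt and 22.4, 21.9 and 25 CPM in 2w Tg7 libraries, and 12.2, 10.3 and 7.6 CPM in 12w Wt and 3.49, 6.08 and 7.43 CPM in 12w Tg7 libraries. The Tg7 libraries were the lower ones at each age, without overlap. The log2 difference was −0.77 (SE 0.23, adjusted p = 0.0452) at 2w and −0.81 (SE 0.25, adjusted p = 0.031) at 12w. Both calls were close to the threshold. The 2w call was lost with any of the 6 libraries left out (−0.89 to −0.69) and with library size alone (−0.61). The 12w call was lost without Wt library 1 (−0.68) or 2 (−0.78), without Tg7 library 1 (−0.54) or 2 (−0.86), with library size alone (−0.34) and in a fit on the 12w libraries alone (−0.85).

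Igf2bp1, best known from the embryo and encoded at chr11:95818477-95867254, had 37, 46 and 73 reads in 2w Wt and 16, 9 and 10 reads in 2w Tg7 libraries. It fell 4.85-fold in 2w Tg7 islets (log2 difference −2.28, SE 0.53, adjusted p = 0.0149), the lowest 2w difference of the 10 genes. The call was lost without Wt library 2 (−2.23) or 3 (−2.1) or Tg7 library 2 (−2.22) or 3 (−2.12), and the gene was not tested under the stricter minimum. At 12w there were 2, 3 and 4 reads in Wt and 2, 7 and 13 in Tg7 libraries, with a difference of 0.69 (SE 0.68, adjusted p = 0.514). The Tg7 effect on Igf2bp1 was higher by 2.97 (SE 0.86) at 12w than at 2w in edgeR and by 2.99 in DESeq2. Igf2bp1 was kept by the filter on low counts through its 2w libraries and had 2 to 13 reads at 12w. Its difference between the ages is therefore a description only and is given without a p. No other gene of the 10 had an unadjusted p under 0.05 for this difference in edgeR. For this difference edgeR called 0 of the 10, beside 1.18% of all genes. DESeq2 called 1, Igf2bp1, beside 601 of 15961 genes, and this call is likewise a description only.

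Igf2bp3, the third of these proteins and the gene with the 8mer match, is encoded at chr6:49035220-49164953. It had 63, 56 and 57 reads in 2w Wt and 112, 17 and 59 reads in 2w Tg7 libraries, so that the Tg7 libraries lay on both sides of the Wt libraries (log2 difference −0.11, SE 0.58, adjusted p = 0.925). Without Tg7 library 1 the difference was −0.82, and without library 2 it was 0.29. At 12w there were 0 reads in all 3 Wt libraries, which allows up to 0.0844 CPM over the group, and 2, 0 and 0 reads in Tg7 libraries, so no fold is given. Its exons share 1531 bases (35.2%) with 2410003K15Rik on the opposite strand, which had 151 to 283 reads in every library, also in those where Igf2bp3 had 0.

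The second comparison asked how the 10 genes changed from 2w to 12w within each genotype. In Wt islets 4 of the 10 passed, all lower, beside 15.8% of all genes tested (7.91% lower and 7.90% higher), with a median of −0.30 against 0.04 over all genes. In Tg7 islets 3 passed as lower and 1 as higher, beside 13.0% of all genes (6.01% lower, 7.02% higher), with a median of −0.71 against −0.01. Without the 12w Wt library 4, 6 of the 10 passed in Wt islets, beside 4020 of the 16460 genes tested in that fit. Igf2bp1 and Igf2bp3 were kept by the filter on low counts through their 2w libraries, where they are higher, so these counts and medians are a description only and the changes of these 2 genes with age are given without a p. In Wt islets Igf2bp3 went from 176 reads at 2w to 0 at 12w, at least 42.3-fold lower when 3 counts over the 12w group stand for 0, and its exact 95% counting interval starts at 34.1-fold. In Tg7 islets it went from 188 to 2 reads, a ratio of 92.3 with an exact 95% counting interval of 25.2 to 767. The 4 genes called in Wt islets were Igfbp7 and the 3 Igf2bp genes. Their 12w and 2w libraries did not overlap, which held for 31.4% of all tested genes. For Igf2bp1 and Igf2bp3 both the call and the lack of overlap are a description only. Igf2bp2 fell 3.97-fold in Wt (log2 change −1.99, SE 0.24, adjusted p = 0.000123) and 4.08-fold in Tg7 islets (−2.03, SE 0.24, adjusted p = 0.000156). Igf2bp1 went from 156 to 9 reads in Wt islets, 12.5-fold lower with a counting interval of 6.42 to 27.9. In Tg7 islets, where it was already low at 2w, it went from 35 to 22 reads, 1.56-fold lower with a counting interval of 0.891 to 2.79. The summed RPKM of the 3 genes went from 6.7 ± 0.849 to 1.43 ± 0.327 in Wt and from 4.07 ± 0.626 to 0.847 ± 0.299 in Tg7 islets. All 8 proliferation markers examined also fell with age in both genotypes, and their relation to the Igf2bp genes was not tested.

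Igfbp7 fell 2.0-fold with age in Wt islets (log2 change −1.0, SE 0.12, adjusted p = 0.000104) and 1.79-fold in Tg7 islets (−0.84, SE 0.12, adjusted p = 0.000487). At 12w the Tg7 libraries (296 to 322 CPM) thus lay below those of 2w Wt islets (349 to 384 CPM). All 10 endothelial markers were also called lower with age in Wt islets (median −1.2), beside 7.91% of all tested genes. In Tg7 islets 3 of the 10 were called lower, beside 6.01% of all tested genes. Their median there was −0.41, and 1 of the 10 had a log2 change above 0. Igfbp3 went the other way in Tg7 islets, where it rose 2.19-fold (1.13, SE 0.27, adjusted p = 0.0124), a call lost without 2w Tg7 library 1 (0.93) or 12w Tg7 library 1 (1.06). In Wt islets its change was 0.41 (adjusted p = 0.318).

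Igf1r did not pass in either genotype with age. Its change in Wt islets was −0.37 (SE 0.30, adjusted p = 0.426), but −0.98 with an adjusted p of 0.00273 without the 12w Wt library 4. Igf2r likewise changed by −0.24 (SE 0.22, adjusted p = 0.479) in Wt islets with that library and by −0.65 (adjusted p = 0.00333) without it. For Igfbp2 the change in Wt islets was 0 (SE 0.61, adjusted p = 0.998) with that library and 0.08 without it. In Tg7 islets, where no such library enters, Igf1r changed by −0.78 (SE 0.31, adjusted p = 0.116), with an adjusted p of 0.02 in a fit on the Tg7 libraries alone and 0.0424 with no filter on low counts, and all 12w libraries lay below all 2w libraries, as for 40.7% of all tested genes.

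Companion genes of the pathway were counted from lists chosen by function, also with earlier results of these data known. Of 10 tested ligands, carriers and proteases outside the set, 3 were higher in Tg7 islets at 2w and 7 did not pass, and at 12w 4 were higher and 1 lower. Over all tested genes 6.07% were higher and 4.55% lower at 2w, and 12.5% were higher and 11.2% lower at 12w. Igf2, the second ligand, measured 7.41, 9.2 and 8.4 CPM in 2w Wt and 20.2, 10.5 and 20.4 CPM in 2w Tg7 libraries (log2 difference 1.03, SE 0.27, adjusted p = 0.0246). That call was lost without Wt library 1 (0.95), 2 (1.1) or 3 (1.04) or Tg7 library 1 (0.90) or 3 (0.87). At 12w Igf2 measured 8.31, 5.55 and 5.26 CPM in Wt and 14.3, 15.4 and 10.2 CPM in Tg7 libraries, 2.11-fold higher in Tg7 (1.08, SE 0.27, adjusted p = 0.0119). The 12w call was lost without Tg7 library 2 (0.96) and with the replicate number as a block (0.97). At both ages every Tg7 library was above every Wt library for Igf2. Stc2, which blocks the proteases that free IGFs from their carriers, was higher by 2.87 (SE 0.54, adjusted p = 0.00405) at 2w. With single libraries left out it was higher by 2.38 to 3.48, the latter without Wt library 1. Stc2 had 24 reads in all in the 2w Wt libraries. Igfals, the third partner of the serum IGF complex, was lower by 2.16-fold at 12w (adjusted p = 0.000392).

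Among 29 tested genes downstream of the receptors, 2 were higher and 1 lower at 2w, and 2 were higher and 9 lower at 12w, beside 10.6% of all tested genes called at 2w and 23.6% at 12w. Grb14, an adaptor that inhibits insulin receptor family kinases, rose 1.76-fold at 2w (log2 difference 0.82, SE 0.11, adjusted p = 0.000343) and 3.13-fold at 12w (1.65, SE 0.11, adjusted p = 3.32e-07), and was the gene of this list with the lowest adjusted p. Its larger effect at 12w passed (0.83, SE 0.15, adjusted p = 0.0177), but not without 2w Wt library 2 (0.83) or 3 (0.81) or 12w Tg7 library 1 (0.84), 2 (0.83) or 3 (0.84). Grb10, an inhibitory adaptor of the same family, went the other way at 12w, where it fell 1.74-fold (−0.80, SE 0.14, adjusted p = 0.00103), a call lost with library size alone (−0.36). At 2w the difference of Grb10 was −0.01 (adjusted p = 0.966). Irs1, the docking protein used by IGF1R, fell 1.90-fold at 2w (−0.93, SE 0.16, adjusted p = 0.00276). At 12w its difference was −0.53 (adjusted p = 0.0323), a call lost without Wt library 1 (−0.43) or Tg7 library 1 (−0.39) or 3 (−0.54). That call was also lost with library size alone (−0.07), no filter (−0.52), the replicate block (−0.55) and a fit on the 12w libraries alone (−0.57). Irs1 shares 30.9% of its exon bases with Gm9747 on the opposite strand. Of 13 tested genes that sort mannose 6-phosphate cargo with Igf2r, 1 was lower at 2w and 5 were lower at 12w, beside 4.55% and 11.2% of all tested genes, and the others did not pass. Vps26a had the lowest adjusted p of this list (log2 difference −0.67 at 12w, SE 0.12, adjusted p = 0.00132). Vps35, of the retromer that returns sorting receptors to the Golgi, was lower by 2.47-fold at 12w (log2 difference −1.3, adjusted p = 0.00154), and by −0.85 on the log2 scale without Wt library 4. Of 8 tested genes of foetal RNA regulation, which accompany the Igf2bp genes in early tissue, 1 was higher at 2w, the imprinted H19 (log2 difference 2.56, SE 0.41, adjusted p = 0.00144). At 12w 0 of the 8 passed in edgeR and 0 in DESeq2, and 1 had an unadjusted p under 0.05.

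Over the 12 libraries, the genes whose log2 CPM most resembled that of Igf1r were Clock (Pearson r 0.986) and Sphkap (0.983), and for Igf2r they were Eif3a (0.976) and Tbc1d1 (0.966). For Igfbp7 they were Mrc2 (0.981) and Cyyr1 (0.98), and for Igfbp3 Pmm1 (0.954) and Inhbb (0.948). Igf2bp2 was most like Med1 (0.953) and Ghrl (0.952), Igf2bp3 like Megf6 (0.965) and Fanca (0.963), and Igf2bp1 like D0H4S114 (0.925) and Lingo1 (0.919). The scarce or weakly changing genes had lower values, with Cebpa and Fstl3 (both 0.924) nearest to Igf1, Palm3 (0.887) and Eci1 (0.878) to Igfbp5, and Acot4 (0.886) and Mpzl2 (0.881) to Igfbp2. These are the highest of 15961 genes over 12 points that share 4 groups, and they describe the libraries only.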

How the data were processed

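The authors prepared paired-end libraries from total islet RNA with the NEB Ultra II kit and, per the labels and the methods, trimmed reads with Trimmomatic, aligned them to mm9 (NCBIM37) with TopHat2 2.0.11 and deposited whole-number counts per Ensembl gene from featureCounts, without normalization. The submitters' processing notes name bcl2fastq 2.20.0 for base calling. Strand setting of the counting step: not given in the sources used here.

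Of 37991 genes, 15961 passed filterByExpr with its minimum count of 10 and minimum total of 15. The model was fitted in edgeR 4.0.16 (R 4.3.3, limma 3.58.1) with glmQLFit and glmQLFTest on TMM-scaled counts, with 4 group means over all 12 libraries and no block. Contrasts were Tg7 minus Wt at 2w and at 12w, the difference of these, and 12w minus 2w in each genotype. Every adjusted p is from edgeR's quasi-likelihood test, adjusted by Benjamini-Hochberg across the 15961 genes (threshold 0.05), unless DESeq2 is named. SE was taken as the log2 difference over the root of its F. CPM divides counts by library total times TMM factor, and RPKM also by union exon length of the Ensembl annotation of NCBIM37. The prior count of log2 CPM was 2. A floor of 3 counts over a group stands for 0 counts, and intervals are exact at 95%; both cover counting error only. The fit was tested on simulated counts. Figures used matplotlib 3.10.9 under Python 3.11.15.

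The 10 genes, companion lists and marker lists were chosen with earlier results of these data known. All 10 genes were named. From each companion list, genes were named out of the 6 or fewer called at 2w or 12w with the smallest adjusted p. Igf2 and Insr were always named. The 2 most similar genes were named by Pearson correlation. Library numbers were not used as pairs. The alternatives were DESeq2 1.42.0, RLE factors, library size alone, the compared groups alone, no filter, a stricter filter (50 counts in 3 libraries), the replicate number as a block and each library left out. None of the 12 libraries were identical. The 12w Wt libraries are numbered 1, 2 and 4.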

Additional observations from a re-analysis of the deposited data

How the results depend on the processing

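Of 653 alternative values of the 10 genes' log2 differences, 578 kept direction and side of the threshold, 24 lost a call, 13 gained 1 and 38 turned sign, and the cause was not tested. No value that passed the test turned sign. Igf2bp3 is not included where no fold is given, and the compared groups alone were not run for the difference between ages, where all 4 groups enter.

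At 2w, 1695 genes passed, against 2617 in DESeq2 and 2630 with the replicate block, and 754 to 1700 with a library left out. Of the 10 genes 5 passed, against 3 under the stricter filter, which does not test Igf1 and Igf2bp1, and 2 to 4 with a library left out. At 12w 3772 genes passed (2417 to 4036 with a library left out) and 4 of the 10 (3 to 5). For the difference between ages 188 genes passed, against 347 with library size alone, 601 in DESeq2, 420 with no filter, 502 with the replicate block and 82 to 579 with a library left out. Of the 10, 0 passed (0 with a library left out) and 1 in DESeq2, Igf2bp1, whose call is a description only. With age in Wt islets 2524 genes passed, against 4120 with library size alone, 3817 with the replicate block, 1283 in the compared groups alone and 1336 to 4020 with a library left out (4 to 6 of the 10). With age in Tg7 islets 2079 passed, against 3441 in the compared groups alone and 1115 to 1708 with a library left out (3 to 4 of the 10).

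Library size alone, without TMM factors, moved the median log2 difference of all genes by 0.17 at 2w and 0.44 at 12w, by 0.27 for the difference between ages, and by −0.39 in Wt and −0.12 in Tg7 islets with age. The share of calls that were higher went from 57.2 to 84.0% at 2w, from 52.7 to 93.5% at 12w, from 73.9 to 93.1% for the difference, from 50 to 7.89% in Wt and from 53.9 to 37.8% in Tg7 islets. Under it Igf2bp3 at 2w (0.08), Igf2r at 12w (0.05), Insr at 12w (0.36), Igf2bp2 for the difference (0.27) and Igf1 in Wt with age (−0.32) turned sign. Igfbp2 with age in Wt islets was 0.01 with RLE factors and 0.02 in DESeq2.

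Residuals of Tg7 and Wt libraries with the same number correlated at −0.0214, −0.167 and −0.0343 at 2w and −0.0894 and −0.0112 at 12w. Between the ages, libraries 1 and 2 gave −0.0362 and −0.114 in Wt, and libraries 1, 2 and 3 gave 0.13, −0.0118 and 0.183 in Tg7 islets. So few values cannot decide whether the numbers mark a pairing. With the replicate block, Igf2r (0.02), Igfbp2 (−0.36) and Insr (0.06) at 12w, Igf1r for the difference (0.25) and Igfbp2 in Wt with age (0.29) turned sign, and Igf1r (−1.01) and Igf2r (−0.61) passed in Wt and Igf1r (−0.76) in Tg7 islets with age. The block takes the 12w Wt library 4 out of the fit, since no other library has that number.

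With single libraries left out, signs turned within these ranges. At 2w they were −0.82 to 0.29 for Igf2bp3 and −0.07 to 0.58 for Igfbp5. At 12w they were −0.60 to 0.06 for Igf2r, −0.38 to 0.71 for Igfbp2, −0.01 to 1.16 for Igf2bp1 and −0.22 to 0.04 for Insr. For the difference between ages they were −0.13 to 0.52 for Igfbp5, −0.28 to 0.23 for Igf2bp2, −0.24 to 0.43 for Igf2r and −0.68 to 0.20 for Igf1r. With age they were −0.66 to 0.42 for Igfbp2, −0.45 to 0.42 for Igf1 and −0.65 to 0 for Igf2r in Wt, and −0.38 to 0.27 for Igfbp5 in Tg7 islets. A group of 2 is then assumed to vary like the others. Depth limits Igf1, Igfbp2, Igf2bp1 and Igf2bp3 most, which had the fewest reads.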
